A study of Homo sapiens with 14 samples.

Results

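Nuclear receptors are transcription factors whose activity is set by lipids, hormones and vitamins, or, for the orphan receptors, with no established natural ligand. Described here are 44 listed genes of this superfamily other than the estrogen receptor ESR1 and the progesterone receptor PGR, in LY2 breast cancer cells given an siRNA against the coactivator SRC-1. The members were chosen by name, as the thyroid hormone, retinoic acid, retinoid X, peroxisome proliferator-activated, REV-ERB, ROR, sterol and xenobiotic, HNF4, COUP-TF, estrogen-related, corticosteroid, NR4A, NR5, NR6 and NR0B receptors with their relatives. Of these, 37 had at least 1 probe set annotated to that gene alone, 116 probe sets in all, among 19775 genes with such a probe set. The other 7 (NR1D1, NR1H2, NR1H4, NR1I2, HNF4A, NR2F2 and NR0B1) were not analysed here. For a gene with several probe sets, the one with the highest mean over the 14 arrays was taken.

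LY2 cells descend from MCF-7, an estrogen-dependent line, and grow despite anti-estrogens, and the study asked which genes are regulated through SRC-1, the product of NCOA1, in such endocrine-resistant cells. All cells were kept in 10 nM 4-hydroxytamoxifen, the active metabolite of tamoxifen, had it withdrawn for 72 hours, and received 40 nM siRNA for 24 hours before a treatment of 2 hours. The 4 groups were SRC1 siRNA with 100 nM 4-hydroxytamoxifen (2 arrays, replicate numbers 1 and 3), scrambled control siRNA with the same tamoxifen dose (4 arrays), SRC1 siRNA with ethanol vehicle, called untreated (4 arrays), and control siRNA untreated (4 arrays). The groups thus compare transient knockdown of a single line, after earlier exposure of every culture to the drug, and nothing in the labels says whether the replicates were separate cultures. The spread behind each p-value is that between these arrays, and it may be technical.

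Nuclear receptors bind DNA as monomers, as homodimers, or as heterodimers with a retinoid X receptor, and ligand exposes a surface on which coactivators dock. SRC-1 is a coactivator of this kind, first described with the steroid receptors and shared by many members of the superfamily. Retinoic acid receptors are known for growth restraint in breast cells, and the glucocorticoid receptor, vitamin D receptor and orphan receptors are also found in breast epithelium.

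Values are log2 signals, and a difference is between group means on that scale. In RNA of whole cultures, fewer cells expressing a gene and less RNA per cell cannot be told apart. NCOA1 itself gave log2 signals of 10.32, 9.96, 10.01 and 10.54 with SRC1 siRNA and 11.14, 11.52, 11.37 and 11.18 with control siRNA in untreated cells, and 10.38 and 10.01 against 11.26, 11.29, 11.53 and 11.12 with tamoxifen. The target was thus lower in every SRC1-siRNA array than in every control-siRNA array, 2.14-fold in untreated and 2.16-fold in tamoxifen-treated cells (limma, adjusted p = 0.000639 and 0.00196, and 0.00776 and 0.0267 when the number was fitted too). All 8 luminal breast epithelial markers examined lay above the median signal of all probe sets, with means of 10.39 to 13.16, while the 4 immune and the 4 endothelial markers and 4 of 5 fibroblast markers lay under it. The exception was COL1A1 at 10.92. With SRC1 siRNA the keratin KRT8 was higher by 0.31 and the cadherin CDH1 differed by -0.27 in untreated cells, the endothelial CDH5 differed by -0.36 under tamoxifen, and 0 of the 9 fibroblast and immune markers were called in either treatment. With the number as a term KRT8 and CDH1 did not pass (limma, adjusted p = 0.1225 and 0.0588) and CDH5 did (0.0487). Of 13 interferon response genes measured, 5 were higher and 0 lower with SRC1 siRNA in untreated cells, against 5.97% and 5.98% of all genes. The mean of the 13 differed between arrays of the same replicate number by 1.27, 0.46, 0.29 and 3.95 at numbers 1 to 4. Under tamoxifen 2 were higher and 0 lower, against 6.49% and 8.71% of all genes. The mean differences there were 1.19 at number 1 and 0.24 at number 3. With the number as a term 2 of the 13 passed in untreated cells and 1 under tamoxifen, against 4.76% and 2.70% of all genes. The part of the interferon response genes in the receptor results was not tested. Arrays that share a number deviated from their group means in opposite directions, with 18 correlations between -0.585 and -0.0421, so the fit was also run with the number as a term. For a receptor called within a treatment, the adjusted p of that fit is given as "with the number". Whether differences between numbers had been removed before deposit was not tested.

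A gene was described as having signal where its mean lay above 3.47, the median over all probe sets. This held for 26 of the 37 receptors (70.3%) and for 62% of all genes. All 5 thyroid hormone and retinoic acid receptors and all 3 NR4A receptors were among them, as were PPARA, PPARD, RORA, NR1D2, NR1H3, VDR, HNF4G, RXRA, RXRB, NR2C1, NR2C2, NR2E3, NR2F6, ESR2, ESRRA, NR3C1, NR5A2 and NR6A1. Those at or under the median were PPARG, RORB, NR1I3, RXRG, NR2E1, NR2F1, ESRRB, ESRRG, NR3C2, NR5A1 and NR0B2. Probe sets differ in affinity, so a signal places a gene against the whole array and does not rank the amounts of 2 receptor RNAs. Taking the brightest probe set also favours genes that have several. The 37 receptors had 116 probe sets, against 41091 for all 19775 genes, and the effect on the shares with signal was not tested.

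Receptors with strong and steady signals came from several branches of the superfamily. NR1D2, the clock repressor REV-ERB beta, gave log2 signals of 11.97 to 12.26 over the 14 arrays. The vitamin D receptor VDR ranged from 11.50 to 11.88, and the glucocorticoid receptor NR3C1 from 10.94 to 11.43. All 3 lay in the upper part of the array's range and moved little from array to array. The fatty acid sensor PPARD ranged from 10.92 to 11.29, and the thyroid hormone receptor THRB from 10.82 to 11.18. The orphan receptors NR2C2 (TR4), NR2C1 (TR2), ESRRA and NR2F6 all had means between 9.33 and 10.45. RXRA, the partner of many of these receptors, varied between 9.76 and 10.00, a narrow range in which all 4 groups overlapped.

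Other receptors had lower signals that still lay above the array median. The estrogen receptor ESR2 had a mean of 5.73, the liver X receptor NR1H3 6.22, the retinoic acid receptor RARA 6.37, and its relatives RARB 4.39 and RARG 4.02. Mean signals of RXRB and PPARA were 5.23 and 5.09. NR4A2, NR4A3 and NR4A1, the ligand-independent early-response receptors, had means of 8.62, 7.85 and 5.60. Among those without signal, NR2E1, a receptor of neural stem cells, had the lowest mean at 1.67. NR5A1, the adrenal and gonadal regulator of steroid synthesis, stayed between 2.43 and 2.75, and NR0B2, the corepressor SHP that lacks a DNA-binding domain, between 2.24 and 2.73. RXRG was the clearest exception to a single description, since its 14 values ran from 1.79 to 5.60 and crossed the median. NR2F1 (2.40 to 3.68) and PPARG (3.12 to 3.50) also crossed it, over narrower ranges.

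**Figure D1:**
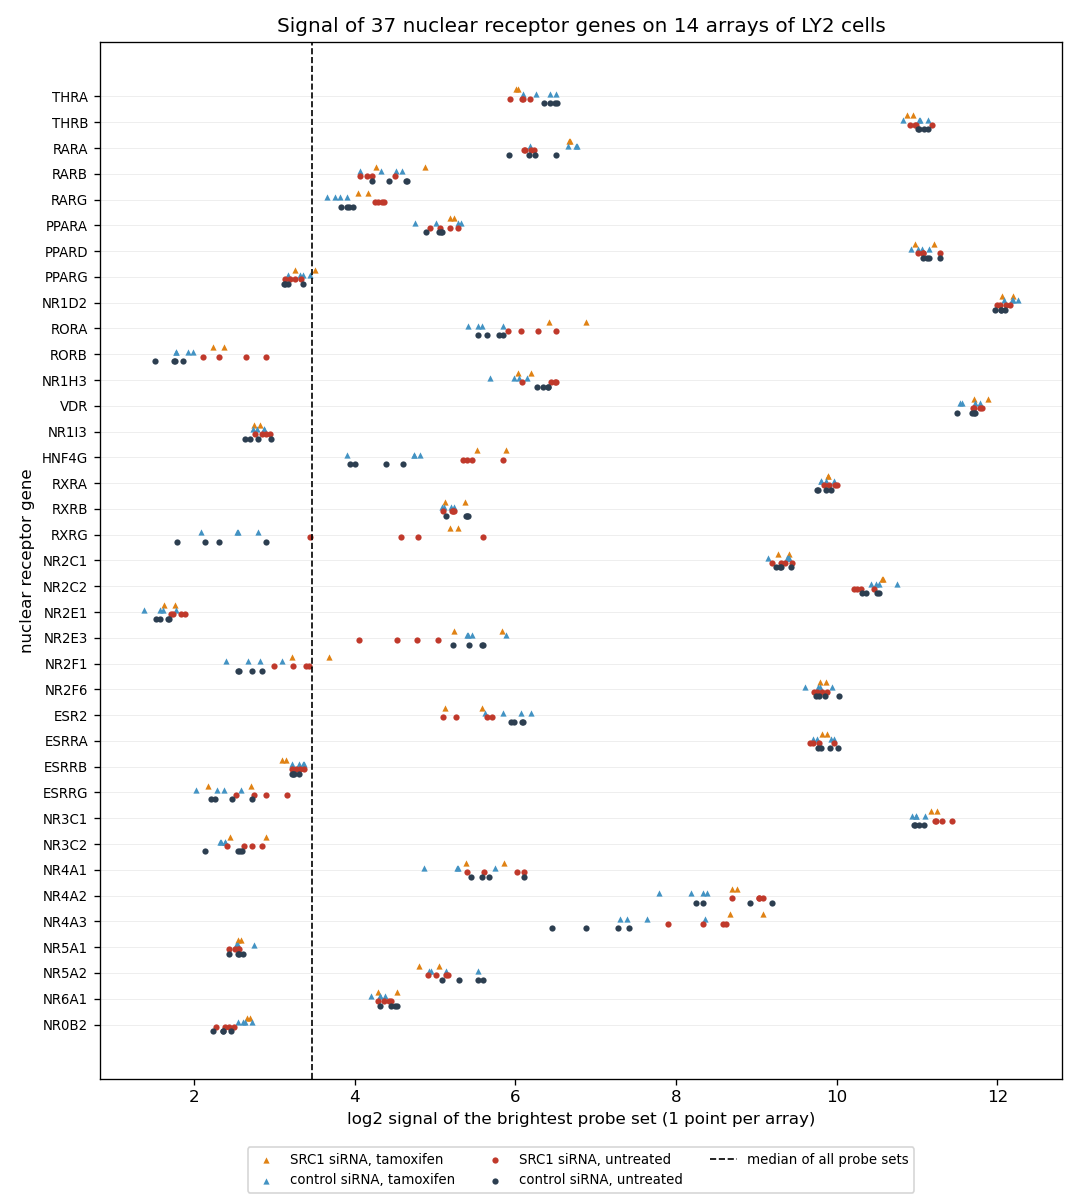
Log2 signal of the brightest probe set (x axis) of each of the 37 measured nuclear receptor genes (rows, grouped by subfamily), with 1 point per array, coloured by group, and the median of all probe sets, 3.47, as a dashed line. Most rows are tight clusters, with RXRG, HNF4G, NR4A3 and NR2E3 spread out, and RXRG spanning the line from 1.79 to 5.60.

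In untreated cells, 8 receptors were higher and 3 lower with SRC1 siRNA than with control siRNA, at an adjusted p under 0.05 over all 54613 probe sets, and 26 did not pass. Across all genes 11.9% passed (5.97% higher and 5.98% lower), against 11 of the 37 receptors. The higher receptors were RXRG, NR4A3, HNF4G, RORB, NR2F1, RORA, RARG and NR3C1, and the lower ones NR2E3, ESR2 and THRA. With the number as a term, 5 remained higher (RXRG, HNF4G, RARG, RORB and NR4A3) and 0 lower, where 4.76% of all genes passed. In that fit 12 receptors had an unadjusted p under 0.05. The share of all genes at the unadjusted cutoff was not counted, here or in the other comparisons. The median difference over the 37 was 0.05, against 0.00 over all genes, and the median size 0.12, against 0.09. Among receptors with signal, 8 of 26 were called (30.8%, against 16.3% of such genes), and among those without, 3 of 11 (27.3%, against 4.90%). The corresponding shares under tamoxifen were 15.4% against 19.8% with signal and 18.2% against 7.62% without, and in the additive model described further on 26.9% against 28.4% and 27.3% against 7.40%.

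**Figure D2:**
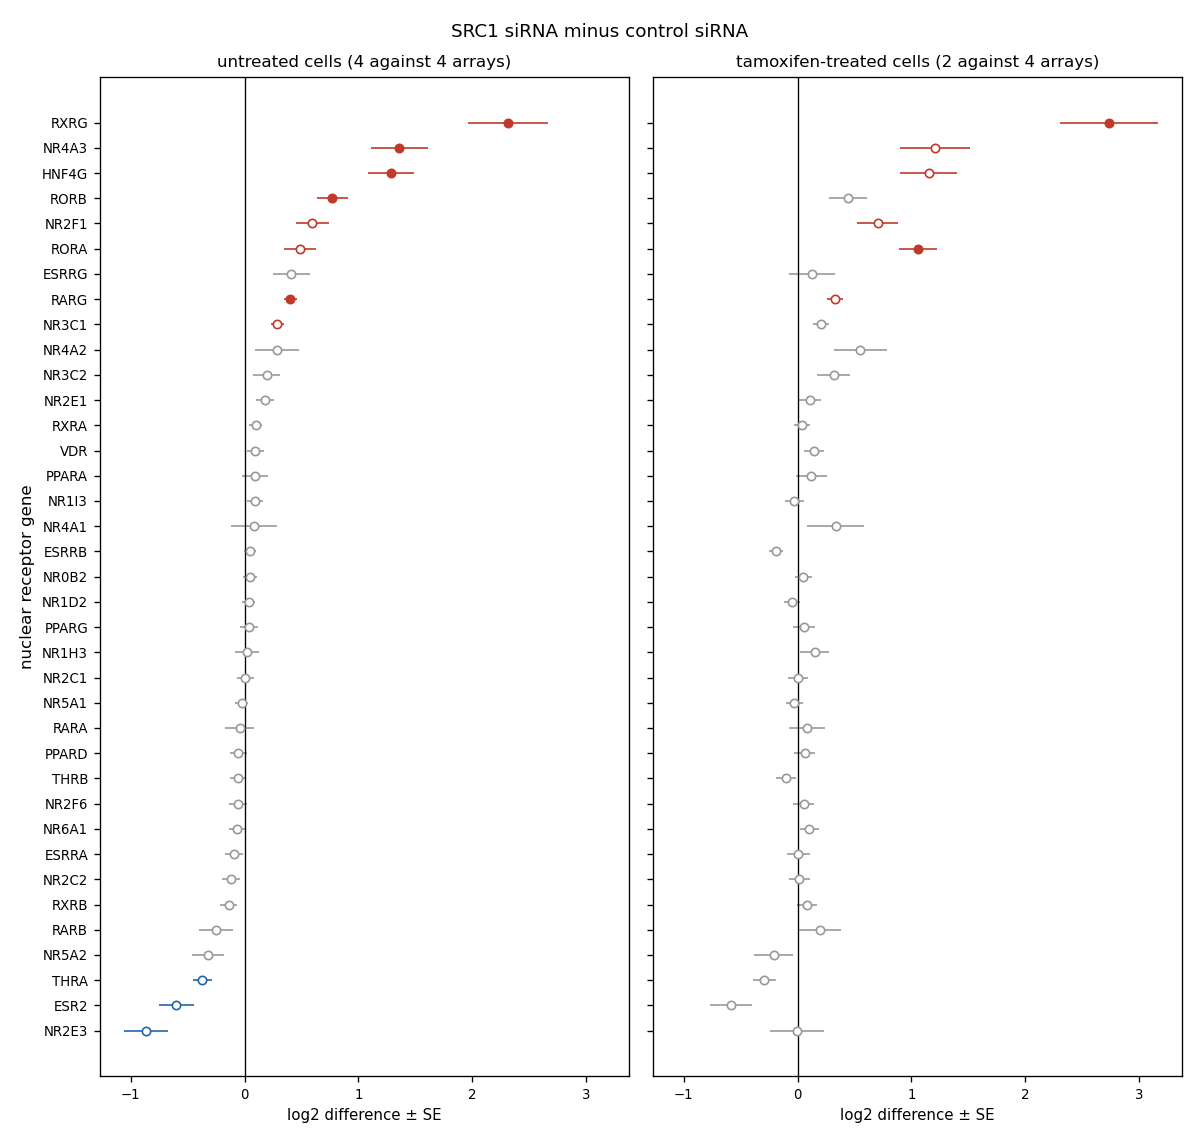
Log2 difference, SRC1 siRNA minus control siRNA, with its standard error (x axis) for the 37 receptors (rows, ordered by the untreated difference), in untreated cells on the left and tamoxifen-treated cells on the right. Red points were called higher and blue lower, grey ones not called, and filled points kept their call when the number was a term; RXRG lies farthest right in both panels, at 2.31 and 2.73.

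RXRG encodes retinoid X receptor gamma, a member of the partner family best known from muscle, pituitary and brain. Its log2 signals were 5.60, 4.79, 4.57 and 3.44 with SRC1 siRNA and 1.79, 2.14, 2.31 and 2.90 with control siRNA in untreated cells. All 4 SRC1-siRNA arrays lay above all 4 control arrays, and 3 of them well above the array median. The difference was 2.31 ± 0.35 (SE, n = 4 each; 4.97-fold; limma, adjusted p = 0.00166, with the number 0.0127). Between arrays of the same number it was 3.81, 2.65, 2.25 and 0.54, so the smallest difference was at number 4, the number at which the interferon response genes differed most. Without the arrays of number 4 it was 2.90. The other retinoid X receptors gave no call: RXRA differed by 0.10 (95% interval -0.02 to 0.22) and RXRB by -0.14 (-0.30 to 0.02). RXRG was read by a single probe set.

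RARG, retinoic acid receptor gamma, had signals of 4.25, 4.29, 4.37 and 4.34 with SRC1 siRNA and 3.98, 3.90, 3.93 and 3.83 with control siRNA. The shift was small but larger than the spread within either group, at 0.40 ± 0.06 (1.32-fold; limma, adjusted p = 0.00136, with the number 0.0144). Its other 2 probe sets also had positive differences, the smallest 0.10, and did not pass. RARA and RARB were not called, at -0.04 (95% interval -0.32 to 0.23) and -0.25 (-0.58 to 0.08). The thyroid hormone receptor THRA moved the other way, with 6.10, 5.93, 6.08 and 6.18 in SRC1-siRNA cells against 6.35, 6.43, 6.49 and 6.52 in control-siRNA cells. These groups did not overlap, and the difference was -0.37 ± 0.08 (limma, adjusted p = 0.0126, with the number 0.0628). Only the brightest of 4 THRA probe sets passed, and the mean over all 4 differed by -0.17 (adjusted p = 0.0877). THRA overlaps NR1D1 on the opposite strand, and none of the 3 probe sets annotated to both genes was called in any comparison.

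RORA and RORB are activators that bind the same DNA elements as the REV-ERB repressors. RORB had signals of 2.89, 2.64, 2.31 and 2.11 with SRC1 siRNA and 1.51, 1.76, 1.75 and 1.86 with control siRNA, a difference of 0.77 ± 0.14 (1.70-fold; limma, adjusted p = 0.00384, with the number 0.0238). Every one of these values lies under the array median, and its other 2 probe sets differed by 0.12 and -0.05 and were not called. RORA gave 5.91, 6.28, 6.51 and 6.07 against 5.54, 5.65, 5.84 and 5.79, a difference of 0.49 ± 0.14 (limma, adjusted p = 0.0383, with the number 0.0963). Of 8 RORA probe sets 4 were called higher and 0 lower. The RORA call was lost without any 1 of SRC1-siRNA untreated replicates 2 and 3 or control-siRNA untreated replicates 1, 2 and 4 (adjusted p = 0.0611 to 0.100), and also without the arrays of number 4 (0.56, adjusted p = 0.0675). NR1D2, the REV-ERB measured here, differed by 0.04 (95% interval -0.09 to 0.16) and was not called.

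HNF4G belongs to the HNF4 group of constitutively active receptors known from liver, kidney and gut. Its signals were 5.85, 5.40, 5.46 and 5.35 with SRC1 siRNA, against 4.00, 4.39, 4.60 and 3.94 with control siRNA. The lowest SRC1-siRNA array thus stood clear of the highest control array, and the difference was 1.29 ± 0.20 (2.44-fold; limma, adjusted p = 0.00205, with the number 0.0130). Within numbers it was 1.86, 1.02, 0.86 and 1.41. A second, dimmer HNF4G probe set differed by 0.04 and did not pass.

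NR4A3 (NOR1) belongs to the orphan receptors whose genes are transcribed within minutes to hours of many stimuli. It had signals of 8.59, 8.33, 8.62 and 7.90 with SRC1 siRNA and 6.88, 7.28, 7.41 and 6.46 with control siRNA. The groups did not overlap, and the difference was 1.36 ± 0.25 (2.56-fold; limma, adjusted p = 0.00467, with the number 0.0250). Of its 3 probe sets 2 were called higher, and the third differed by -0.26 without passing. The same-number differences were even, at 1.71, 1.05, 1.22 and 1.45. Its relatives NR4A1 and NR4A2 were not called, with differences of 0.08 (95% interval -0.36 to 0.52) and 0.28 (-0.13 to 0.70).

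NR2F1 (COUP-TFI), an orphan receptor of development, gave 3.23, 3.43, 3.39 and 2.99 in SRC1-siRNA cells and 2.72, 2.56, 2.55 and 2.85 in control-siRNA cells. NR2F1 was read by a single probe set, and all these values lie under the array median. The difference of 0.60 ± 0.15 (limma, adjusted p = 0.0211) did not pass with the number (0.0744). NR2F1 also lost its call without any 1 of SRC1-siRNA untreated replicates 2 and 3 and control-siRNA untreated replicates 2 and 3 (adjusted p = 0.0551 to 0.0645). The glucocorticoid receptor NR3C1 had 11.31, 11.23, 11.43 and 11.22 with SRC1 siRNA, against 10.96, 11.03, 10.98 and 11.09 with control siRNA. This was a shift of 0.29 ± 0.06 (1.22-fold; limma, adjusted p = 0.00779, with the number 0.0549), and 3 of 5 NR3C1 probe sets were called higher, but the mean over all 5 differed by 0.20 and was not called (limma, adjusted p = 0.0962). The mineralocorticoid receptor NR3C2, without signal here, differed by 0.19 (95% interval -0.06 to 0.45).

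Besides THRA, the lower receptors were ESR2 and NR2E3. ESR2, estrogen receptor beta, had signals of 5.64, 5.71, 5.10 and 5.26 with SRC1 siRNA and 6.09, 5.98, 5.95 and 6.08 with control siRNA, a difference of -0.60 ± 0.15 (limma, adjusted p = 0.0235, with the number 0.0831). The other 5 of its 6 probe sets were not called, the mean over all 6 differed by -0.09 (adjusted p = 0.279), and the call was lost without any 1 of SRC1-siRNA untreated replicates 3 and 4 or control-siRNA untreated replicates 1 and 4 (adjusted p = 0.0568 to 0.0650), and without the arrays of number 4 (0.0982). NR2E3, a receptor known from photoreceptors, had 4.05, 4.52, 4.77 and 5.03 with SRC1 siRNA and 5.42, 5.59, 5.60 and 5.22 with control siRNA. The groups did not overlap, and the difference was -0.87 ± 0.19 (limma, adjusted p = 0.0125, with the number 0.0520). Within numbers it was -1.38, -1.07, -0.83 and -0.19, again smallest at number 4. A second NR2E3 probe set differed by 0.03.

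In each of the 11 called receptors the untreated groups did not overlap, which fixes the sign at every replicate number, so only the sizes of the same-number differences are described. Over the 37 receptors the groups did not overlap for 12, against 18.4% of all genes. Of those not called, the smallest p belonged to ESRRG (0.41 ± 0.16, an orphan receptor of energy metabolism), NR5A2 (-0.32 ± 0.14, LRH-1), NR2E1 (0.18 ± 0.08) and RXRB. All 26 not called had differences between -0.32 and 0.41, and their 95% intervals lay between -0.62 and 0.77.

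**Figure D3:**
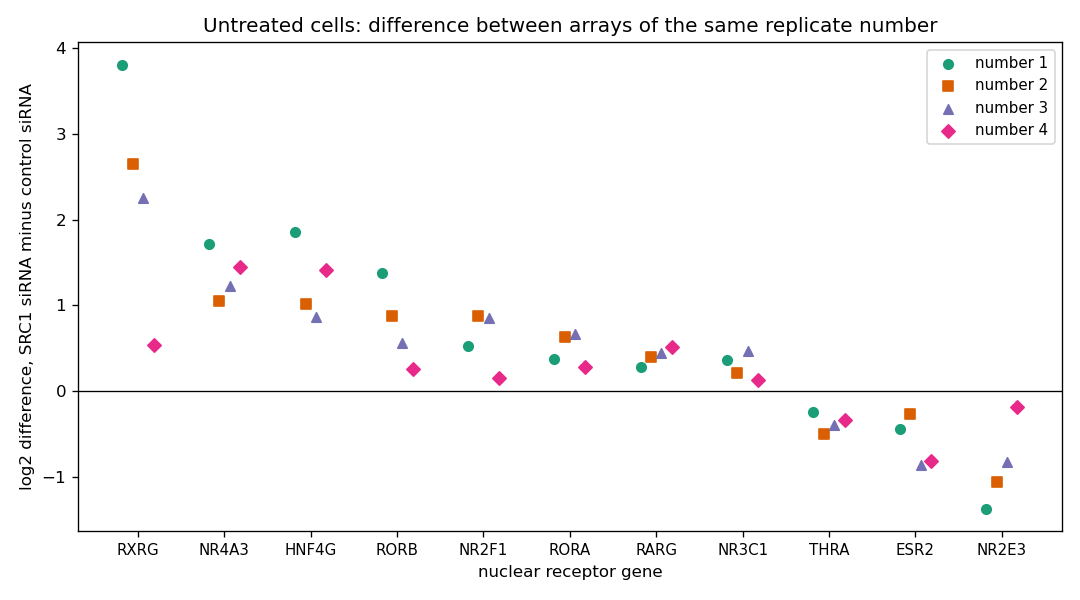
Log2 difference, SRC1 siRNA minus control siRNA (y axis), between untreated arrays of the same replicate number (4 markers per gene) for the 11 receptors called in a knockdown comparison. The groups do not overlap, so all 4 markers of a receptor have to lie on 1 side of 0; the sizes differ, and RXRG runs from 3.81 at number 1 to 0.54 at number 4.

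The promoters of 3 of the receptors that were higher with SRC1 siRNA are shown: those of RXRG and RARG because each holds a match to a motif searched, and that of NR4A3 for a shorter motif. Promoter sequence here is RefSeq's, build GRCh38.p14, from 250 bases before a gene's start to 50 after it, 5′ to 3′ on the gene's strand. The motifs, searched on both strands, were the nuclear receptor half-site AGGTCA, the cyclic AMP response element TGACGTCA and the core of the interferon-stimulated response element (GAAA, any 2 bases, GAAA). RXRG (chr1:165445077-165445376, minus strand) has 1 match to the half-site, read as TGACCT and starting 231 bases before the start. RARG (chr12:53232160-53232459, minus strand) has 1 match to the interferon element core within a run of purines, starting 22 bases before the start. NR4A3 (chr9:99821635-99821934, plus strand) has none of the 3, but 4 matches to TGACG, the first 5 letters of the cyclic AMP element, a motif chosen after this sequence was seen. Capitals mark these matches.
RXRG: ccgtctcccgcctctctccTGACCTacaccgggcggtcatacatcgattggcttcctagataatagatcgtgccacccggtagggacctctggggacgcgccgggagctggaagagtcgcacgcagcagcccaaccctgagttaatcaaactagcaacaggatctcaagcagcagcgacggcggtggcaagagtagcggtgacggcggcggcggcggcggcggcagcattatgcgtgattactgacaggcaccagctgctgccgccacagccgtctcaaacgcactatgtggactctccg
RARG: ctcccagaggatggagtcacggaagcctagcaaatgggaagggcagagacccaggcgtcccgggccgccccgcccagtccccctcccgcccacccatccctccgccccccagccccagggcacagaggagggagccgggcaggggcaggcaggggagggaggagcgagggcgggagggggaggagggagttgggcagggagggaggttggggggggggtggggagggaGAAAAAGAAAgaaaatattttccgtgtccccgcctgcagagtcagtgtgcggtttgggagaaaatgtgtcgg
NR4A3: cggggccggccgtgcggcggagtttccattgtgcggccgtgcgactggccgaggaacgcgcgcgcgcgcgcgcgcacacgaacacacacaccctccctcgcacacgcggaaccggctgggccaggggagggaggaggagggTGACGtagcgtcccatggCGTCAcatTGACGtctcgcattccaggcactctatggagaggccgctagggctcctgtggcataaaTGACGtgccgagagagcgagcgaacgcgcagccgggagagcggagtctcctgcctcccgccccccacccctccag

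Of 35116 promoters of this length, 13.8% hold AGGTCA, 1.85% TGACGTCA and 3.57% the interferon element core. Among the 77 promoters of the 32 receptors with an entry, the counts were 14 (18.2%), 2 (2.60%) and 3 (3.90%). At least 4 matches to TGACG occur in 0.313% of promoters and at least 1 in 24.6%. Because this motif was picked from the NR4A3 sequence, these shares are no test of it. The promoter of RORA and both listed promoters of NR2F1 hold none of the first 3 motifs, and HNF4G has no promoter entry. Such a match is a string of letters and was not tested as a binding site.

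With tamoxifen, 6 receptors were higher and 0 lower in SRC1-siRNA than in control-siRNA cells, where 15.2% of all genes passed (6.49% higher and 8.71% lower). These were RXRG, NR4A3, HNF4G, RORA, NR2F1 and RARG, all 6 of which were also called in untreated cells. The untreated arrays are other arrays, but both comparisons rest on the same estimate of the spread, taken over all 14 arrays. An unadjusted p under 0.05 was found for 13 receptors, again without a count over all genes. With the number as a term 2 passed, RXRG and RORA, against 2.70% of genes. Only 2 SRC1-siRNA arrays carry this comparison, and the groups did not overlap for 13 of 37 receptors, against 38.9% of all genes. The median difference was 0.09 over the receptors and -0.03 over all genes, and the median size 0.13 in both.

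RXRG gave 5.28 and 5.18 with SRC1 siRNA and 2.09, 2.55, 2.53 and 2.80 with control siRNA under tamoxifen. Both SRC1-siRNA arrays lay well above the 4 controls, by 2.73 ± 0.43 (n = 2 and 4; 6.65-fold; limma, adjusted p = 0.00238, with the number 0.0292). RORA gave 6.88 and 6.42, against 5.54, 5.85, 5.58 and 5.41, a difference of 1.06 ± 0.17 (2.08-fold; limma, adjusted p = 0.00243, with the number 0.0240). For RORA 4 of 8 probe sets were called higher in this comparison too.

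HNF4G had 5.88 and 5.52 in SRC1-siRNA cells, against 3.90, 4.74, 4.74 and 4.81 in control-siRNA cells, and differed by 1.15 ± 0.25 (2.22-fold; limma, adjusted p = 0.0107, with the number 0.0628). NR4A3 had 9.08 and 8.67, against 7.30, 7.64, 7.39 and 8.36, and differed by 1.20 ± 0.31 (2.30-fold; limma, adjusted p = 0.0223, with the number 0.109). The gap between groups was narrowest at the control array of number 4. RARG had 4.17 and 4.04, against 3.66, 3.90, 3.81 and 3.75 (difference 0.33 ± 0.07; limma, adjusted p = 0.0111, with the number 0.0896). Its other 2 probe sets differed by -0.01 and -0.20, the mean over its probe sets by 0.04 (limma, adjusted p = 0.653), and the call was lost with only the arrays compared in the fit (0.0664). NR2F1 had 3.68 and 3.22, against 2.40, 2.82, 3.10 and 2.67 (0.70 ± 0.18; limma, adjusted p = 0.0224, with the number 0.110), and its difference was 1.28 at number 1 and 0.12 at number 3. The NR2F1 call was also lost with only the arrays compared (limma, adjusted p = 0.0754). Leaving out SRC1-siRNA tamoxifen replicate 1 left a single higher receptor, RXRG. Leaving out SRC1-siRNA tamoxifen replicate 3 ended the NR4A3 call (1.41, adjusted p = 0.0523), as did leaving out control-siRNA tamoxifen replicate 3 (1.11, adjusted p = 0.0506). Without either SRC1-siRNA array that group is 1 array, which is assumed to vary like the other groups.

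**Figure D4:**
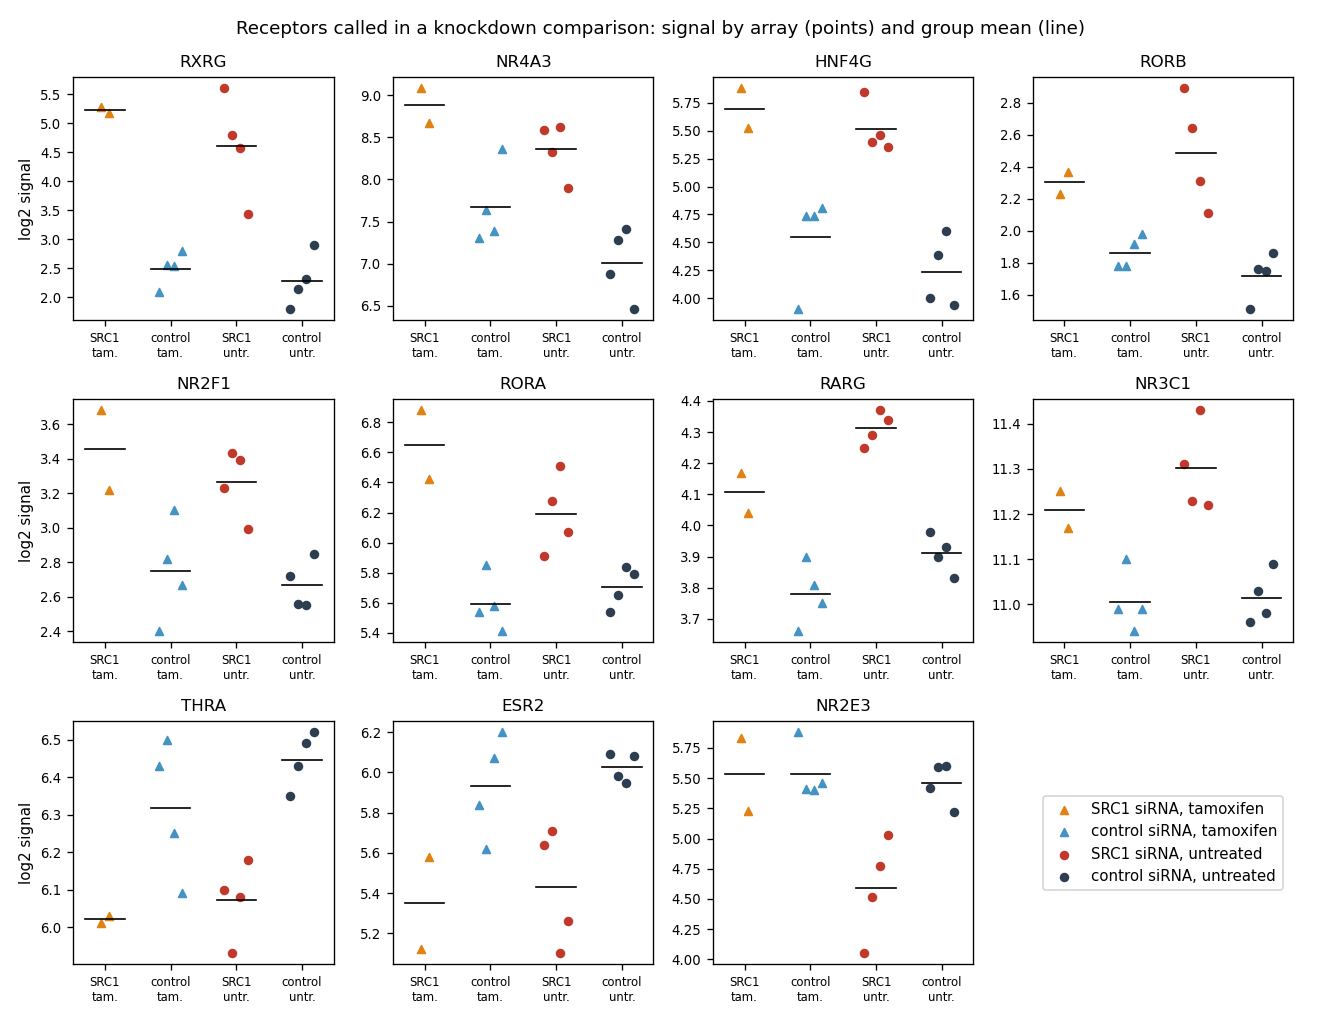
Log2 signal per array (points, y axis, scaled separately for each receptor and not starting at 0) and group mean (line) of the 11 receptors called in a knockdown comparison, with SRC1 siRNA left of control siRNA and tamoxifen left of untreated. RXRG, HNF4G and NR4A3 lie higher with SRC1 siRNA under both treatments, and NR2E3 is low in the untreated SRC1-siRNA arrays, at 4.05 to 5.03.

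The receptors closest to a call under tamoxifen without passing were ESRRB (-0.19 ± 0.06, adjusted p = 0.0512 by limma), ESR2 (-0.58 ± 0.19, 0.0529), THRA (-0.29 ± 0.10, 0.0718) and NR3C1 (0.20 ± 0.07, 0.0749). RORB, called in untreated cells, differed by 0.44 ± 0.17 (adjusted p = 0.0995), with signals of 2.23 and 2.37 against 1.78, 1.78, 1.92 and 1.98. NR2E3 had 5.83 and 5.23 with SRC1 siRNA and 5.88, 5.41, 5.40 and 5.46 with control siRNA, so these groups overlapped and the difference was 0.00 (95% interval -0.51 to 0.50). The 31 receptors not called had differences between -0.58 and 0.55, with 95% intervals between -0.98 and 1.06.

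Whether the knockdown differed between treatments was tested with the interaction term, and 0 of 37 receptors passed, against 0.172% of all genes. By limma 3 had an unadjusted p under 0.05 without the number as a term, and 3 with it, a cutoff not counted over all genes. NR2E3 was the largest of them, its difference being 0.86 ± 0.30 higher under tamoxifen than without (unadjusted p = 0.0136, adjusted p = 0.183). RORA (0.57 ± 0.22, adjusted p = 0.210) and ESRRB (-0.24 ± 0.08, adjusted p = 0.157) were the others. A difference in the knockdown effect between treatments was thus not shown for any receptor, with intervals over all 37 running from -1.01 to 1.62.

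Over both treatments, in a model with siRNA and treatment as additive terms, 8 receptors were higher and 2 lower with SRC1 siRNA, and all 10 also passed with the number as a term. Of all genes 20.4% passed (9.34% higher and 11.1% lower), and 11.5% with the number. RXRG differed by 2.48 ± 0.27 (5.58-fold; limma, adjusted p = 3.7e-05, with the number 0.000681) and NR4A3 by 1.30 ± 0.19 (2.45-fold; 0.000317 and 0.00302). HNF4G differed by 1.23 ± 0.15 (2.35-fold; 0.000102 and 0.00112), RORA by 0.71 ± 0.13, NR2F1 by 0.64 ± 0.11 and RORB by 0.64 ± 0.11. Smaller were RARG at 0.37 ± 0.05 and NR3C1 at 0.25 ± 0.05, with ESR2 at -0.59 ± 0.11 and THRA at -0.34 ± 0.06 on the lower side. With the number, these 7 had adjusted p values of 0.00795 (RORA), 0.00859 (NR2F1), 0.00830 (RORB), 0.00190 (RARG), 0.0150 (NR3C1), 0.0145 (ESR2) and 0.0142 (THRA) by limma. The mean over the ESR2 probe sets differed by -0.08 and was not called (adjusted p = 0.157). NR2E3, called lower in untreated cells, did not pass here (-0.52 ± 0.18, adjusted p = 0.0628).

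Some receptors had a probe set that passed while the brightest did not. With SRC1 siRNA in untreated cells this was NR6A1, a germ cell receptor, by 1 of 7 probe sets (-0.15). Under tamoxifen another NR6A1 probe set was higher (0.28), 1 of 3 ESRRB probe sets was higher (0.43) while the brightest differed by -0.19 without passing, and 1 of 2 NR1I3 and 1 of 9 PPARA probe sets were lower (-0.25 and -0.80). For NR3C1 2 of 5 probe sets were called higher under tamoxifen, and all 5 differences were positive, up to 0.42. In the additive model such a probe set was found for ESRRA (0.25), THRB (-0.14), VDR (-0.14) and NR6A1 (-0.13). RARG, RORB, HNF4G, ESR2, THRA and NR2E3 were called in untreated cells by the brightest of their probe sets alone. Averaging a gene's probe sets gave smaller untreated differences for HNF4G (0.66), NR4A3 (0.47), RORB (0.28), RORA (0.32), RARG (0.23) and NR2E3 (-0.42), which kept their calls.

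Tamoxifen for 2 hours gave no receptor call within either siRNA group. In control-siRNA cells 0 of 37 receptors passed (limma), against 0.248% of all genes. With the number as a term 0 passed, against 0% of all genes. An unadjusted p under 0.05 was found for 8 receptors without that term and 5 with it, a cutoff not counted over all genes. In SRC1-siRNA cells 0 passed, against 0.819% of genes. There 7 receptors had an unadjusted p under 0.05 by limma, again without a count over all genes. Groups did not overlap for 2 receptors in control-siRNA cells, against 10% of genes, and for 7 in SRC1-siRNA cells, against 20.9%. All 37 differences lay between -0.49 and 0.67 in control-siRNA cells and between -0.39 and 0.94 in SRC1-siRNA cells.

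The smallest p in control-siRNA cells was that of NR0B2, with signals of 2.63, 2.72, 2.61 and 2.55 with tamoxifen and 2.24, 2.46, 2.36 and 2.36 untreated. The difference was 0.27 ± 0.06 (limma, adjusted p = 0.0837), in a probe set under the array median. NR1H3 (LXR alpha, a sterol sensor) had 6.15, 5.68, 6.04 and 5.98 with tamoxifen, against 6.41, 6.34, 6.41 and 6.27 untreated (-0.40 ± 0.11, adjusted p = 0.114). These groups did not overlap. RARA had 6.77, 6.76, 6.66 and 6.18 with tamoxifen, against 5.92, 6.17, 6.24 and 6.50 untreated (0.38 ± 0.13, adjusted p = 0.185), and the differences within numbers were 0.85, 0.59, 0.42 and -0.32. NR4A3 differed by 0.67 ± 0.25 (adjusted p = 0.222), with 1.90 at number 4 and between -0.02 and 0.42 at the others. Its relatives NR4A1 and NR4A2 differed by -0.41 ± 0.20 and -0.49 ± 0.19 (adjusted p = 0.352 and 0.234).

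In SRC1-siRNA cells NR2E3 had 5.83 and 5.23 with tamoxifen, against 4.05, 4.52, 4.77 and 5.03 untreated (0.94 ± 0.24, adjusted p = 0.0654 by limma). NR0B2 differed by 0.28 ± 0.08 (adjusted p = 0.0897), RARA by 0.51 ± 0.16 (0.118) and ESRRB by -0.18 ± 0.06 (0.154). RARA gave 6.67 and 6.68 with tamoxifen, against 6.12, 6.11, 6.19 and 6.23 untreated, so these groups did not overlap. In the additive model NR0B2 alone passed, at 0.28 ± 0.05 (limma, adjusted p = 0.0349), where 0.248% of genes did (0.091% higher), and it did not pass with the number as a term (0.263). The call was lost in 13 of 21 alternatives, among them leaving out any 1 of 10 of the 14 arrays (adjusted p = 0.0519 to 0.0917). It was also the only receptor with a call for tamoxifen in any of the 3 fits.

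**Figure D5:**
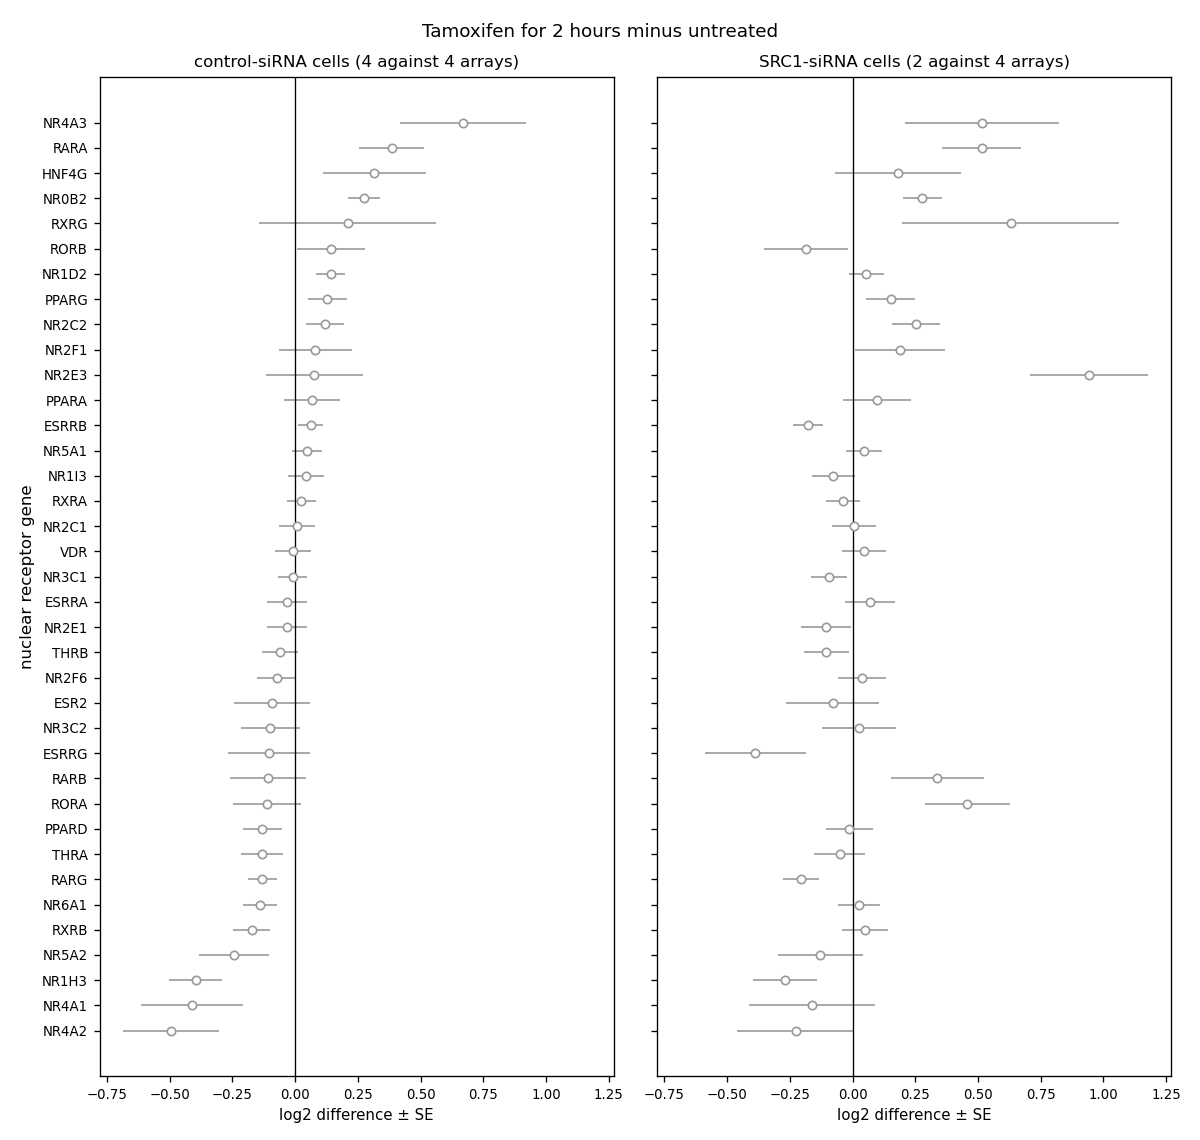
Log2 difference, tamoxifen for 2 hours minus untreated, with its standard error (x axis) for the 37 receptors (rows, ordered by the difference in control-siRNA cells), in control-siRNA cells on the left and SRC1-siRNA cells on the right. All points are open and grey because 0 receptors passed in either comparison; the farthest are NR2E3 at 0.94 on the right and NR4A3 at 0.67 on the left.

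Genes known to act in the pathways of these receptors were read from 6 short lists of targets and enzymes, beside the 11.9% of all genes called in untreated and 15.2% in tamoxifen-treated cells. Of 12 measured genes of retinoid metabolism and retinoic acid response, 1 was higher and 1 lower with SRC1 siRNA in untreated cells, and 3 were higher and 2 lower under tamoxifen. DHRS3, which reduces retinaldehyde to retinol, was higher by 0.62 ± 0.09 in untreated and 0.70 ± 0.11 in tamoxifen-treated cells (limma, adjusted p = 0.00111 and 0.00191, with the number 0.00969 and 0.0288). ALDH1A3, which makes retinoic acid, was lower by 0.54 ± 0.15 untreated and 0.66 ± 0.18 with tamoxifen (adjusted p = 0.0356 and 0.0332, with the number 0.0962 and 0.129). ALDH1A1, another enzyme of that step, was called under tamoxifen (0.75 ± 0.13; limma, adjusted p = 0.00389, with the number 0.0445), as was the retinol dehydrogenase RDH10 (0.36 ± 0.10, with the number 0.163). The list's median difference was -0.03 untreated and -0.06 with tamoxifen.

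Of 9 measured glucocorticoid receptor targets, 2 were higher and 1 lower with SRC1 siRNA under each treatment. NFKBIA, the NF-kappaB inhibitor, differed by 0.67 ± 0.13 in untreated cells (limma, adjusted p = 0.00488, with the number 0.0265) and 0.64 ± 0.15 under tamoxifen (0.0167, with the number 0.0932). The metallothionein MT2A differed by 0.44 ± 0.13 and 0.68 ± 0.16 (limma, adjusted p with the number 0.112 and 0.0833). TSC22D3, or GILZ, was lower in untreated cells (-0.36 ± 0.09; limma, adjusted p with the number 0.0653), and ZBTB16 under tamoxifen (-0.30 ± 0.09; with the number 0.181). The list's median was 0.03 untreated and -0.09 with tamoxifen.

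Among 9 PPAR targets, 1 was lower in untreated cells, and 2 were higher and 2 lower under tamoxifen. The lipid droplet protein PLIN2 was lower by 0.59 ± 0.11 untreated and by 0.95 ± 0.14 with tamoxifen (limma, adjusted p = 0.00593 and 0.00171, with the number 0.0259 and 0.0210). PDK4 (0.59 ± 0.17), ANGPTL4 (0.56 ± 0.16) and ACADM (-0.42 ± 0.10) were called under tamoxifen and did not pass with the number. Of 14 clock genes, CLOCK was lower under both treatments (-0.46 ± 0.09 and -0.51 ± 0.11; limma, adjusted p with the number 0.0343 and 0.0757) and NPAS2 higher with tamoxifen (0.41 ± 0.09; with the number 0.0729). Of 9 vitamin D and thyroid hormone targets 2 were higher untreated and 1 with tamoxifen. DIO1, the thyroid hormone deiodinase, differed by 1.11 ± 0.22 and 1.50 ± 0.27 (limma, adjusted p = 0.00698 and 0.00427, with the number 0.0334 and 0.0433), and CYP24A1, the vitamin D hydroxylase, by 0.44 ± 0.13 in untreated cells (0.0424, with the number 0.121).

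Of 10 liver X receptor targets and sterol regulators, 1 was higher (SMPDL3A, 0.39 ± 0.09) and 1 lower (FASN, -0.25 ± 0.07) in untreated cells, neither of which passed with the number, and 0 were called with tamoxifen. No gene of these 6 lists was called for tamoxifen itself in either siRNA group or in the additive model.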

How the data were processed

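The authors deposited log2 signals per probe set and array (Affymetrix HG-U133 Plus 2.0), per the labels amplified with a NuGEN Ovation kit. The background correction, the normalization and the log base were not given in any source used here, so the base was read from the size of the values. The submitters' processing notes name R 2.9.2. Values were used as deposited, without 62 control probe sets, which left 54613. Array medians lay between 3.44 and 3.51, and the number of arrays limits the precision.

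Probe sets were named from the platform annotation with symbols updated through RefSeq: 41091 had 1 symbol, 1801 several and 11721 none. Group means over 14 arrays, and an additive model, were fitted with limma 3.58.1 (lmFit and eBayes, statmod 1.5.0, R 4.3.3), two-sided. Adjusted p is Benjamini-Hochberg over all 54613, with a threshold of 0.05. Differences are followed by their standard error. Whether replicate numbers pair the samples cannot be told from the deposited values. Same-number correlations were all negative (median -0.334), and the F statistic of the number had a median of 0.0428, against 0.871 expected by chance. If differences between numbers had been removed beforehand, the fit without the term counts too many degrees of freedom (10, against 7 with it) and gives p-values that are too low.

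The members, the 10 gene lists and markers, the interferon genes and the tests were chosen with earlier results of these data known. Described per array were receptors that passed in a comparison, the siRNA's target, and the 4 not passing with the smallest p per comparison. Alternatives were other normalizations, filters, variance models, the replicate number as a term, averaging a gene's probe sets and leaving out each array; leaving out number 4 was chosen after seeing the data. Simulated data with 200 changed probe sets, for the knockdown in untreated cells over 54613 probe sets, gave a recovery of 64.4% of changes of 0.5 and 98.4% of changes of 1 on the log2 scale, and 6.01% of calls were false. The data gave 5653 calls in that comparison, so the simulated rates need not hold for them.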

Additional observations from a re-analysis of the deposited data

Results flagged for a closer look

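Within groups of 4 arrays, 4 of 57 receptor and group pairs examined had 1 array far from the other 3 by Dixon's ratio (the gap to the nearest array over the range, above its 95% critical value), where chance gives about 5%. HNF4G was 3.90 in control-siRNA tamoxifen replicate 1, with the nearest of the others at 4.74, and this array adds to the difference that HNF4G showed under tamoxifen. NR2E3 was 5.88 in the same array, with the nearest at 5.46. RXRB was 5.13 in control-siRNA untreated replicate 3 (nearest 5.39), and NR1H3 was 6.08 in SRC1-siRNA untreated replicate 3 (nearest 6.44). Neither RXRB nor NR1H3 was called in a knockdown or tamoxifen comparison.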

How the results depend on the processing

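Counts of receptors called that moved by more than 1.5 times come first. The replicate block has the number as a term, so it treats arrays of the same number as matched. With it the knockdown had 5 receptors higher and 0 lower in untreated cells, and 2 higher under tamoxifen. Tamoxifen in the additive model had 0. With a gene's probe sets averaged, 1 receptor was lower in untreated cells. The count of lower receptors under tamoxifen, 0 as deposited, was 3 after quantile normalization, 3 after median centring, 1 without dim probe sets, 1 with a trended and robust variance and 1 without the arrays of number 4. Without number 4, RARA was called higher for tamoxifen (1 receptor in control-siRNA cells, 0.62, and 1 in SRC1-siRNA cells, 0.54). The additive call of NR0B2 for tamoxifen was lost (0 receptors) without dim probe sets, which leaves its probe set out, with array weights (adjusted p = 0.0524), without the arrays of number 4 (0.0966) and without any 1 of 10 of the 14 arrays. Without number 4 another receptor was called there. Smaller moves in the count of higher receptors were to 6 without dim probe sets, 7 with probe sets averaged and 7 without number 4 for the knockdown in untreated cells, to 7 after quantile normalization and 5 without dim probe sets, with only the arrays compared or with probe sets averaged under tamoxifen, and to 6 without dim probe sets and 9 without number 4 in the additive model. Lower receptors in the additive model numbered 3 after quantile normalization, without dim probe sets, with a trended and robust variance and with array weights. Leaving out each array gave 6 to 8 higher and 2 to 3 lower receptors for the knockdown in untreated cells, 1 to 7 higher and 0 to 2 lower under tamoxifen, 8 to 9 higher and 2 to 3 lower in the additive model, and 0 to 2 higher and 0 to 1 lower for tamoxifen in the additive model. With the mean of its probe sets ESRRB turned sign, to 0.0432 for the knockdown under tamoxifen and 0.0175 for tamoxifen in SRC1-siRNA cells. RXRG, RARG, HNF4G, RORB and NR4A3 stayed called in untreated cells under every alternative run on them, and RXRG under tamoxifen. Over all 54613 probe sets, calls ranged from 2154 (replicate block) to 6065 for the knockdown in untreated cells (5653 as reported), from 1224 to 8019 under tamoxifen (7350), from 1 to 232 for tamoxifen in control-siRNA cells (89), and from 0 to 925 in SRC1-siRNA cells (824), where the share higher was 60% and 45.4% after median centring. The range was 5031 to 9417 for the additive knockdown (9296), 4 to 214 for additive tamoxifen (164) and 0 to 346 for the interaction (153; share higher 47.7%, and 36.2% after median centring). Where no cause is given, the cause was not tested. Signals under the array median are limited by background, which touches RXRG in control-siRNA cells, RORB, NR2F1 and NR0B2.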
